A study of Capitella teleta with 12 samples.

Results

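A group of 168 gene models of the annelid *Capitella teleta* was already detected at the 8-cell stage and had at least 4 times the transcript level at the 32-cell stage, out of 32415 gene models in the count table. Members were chosen from the counts themselves. A gene model needed 5 or more counts summed over the 4 8-cell embryos, a 32-cell level at least 4 times the 8-cell level, and a lowest 32-cell embryo above the highest 8-cell embryo. Levels are CPM, counts per 1000000 counts of an embryo, and the level of a stage is its summed counts over its summed totals. Of the 9989 gene models with enough 8-cell counts, 225 reached the 4-fold difference, 680 had all 32-cell embryos above all 8-cell embryos, and 169 met both. The rule leaves out 1 of these, the Smad1/5/8 gene model, so 168 were kept.

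The series holds single whole embryos at 3 stages of early cleavage, namely 4 8-cell, 3 16-cell and 5 32-cell embryos. The adults came from a laboratory colony, and the labels give no treatment, genotype or brood for any embryo. The study relates these stages to an organizer, a cell that patterns the embryo. It ties the 8- and 16-cell stages to organizer activity, with the signal needed up to the 16-cell stage, and places the 32-cell stage after it. Each embryo received its own barcode at reverse transcription and was profiled by CEL-Seq, which counts molecules near the 3′ end of polyadenylated RNA. The counts were therefore not divided by gene length.

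Early animal embryos divide on RNA and protein loaded into the egg by the mother, and hand control over to their own genome by degrading maternal transcripts and starting transcription. During this maternal-to-zygotic transition some genes are represented by both maternal and new transcripts. In spiral cleavage, the pattern shared by annelids and molluscs, blastomere fates are set while cell numbers are still small. A whole-embryo level cannot tell stored transcripts from new ones, nor more expressing cells from more RNA per cell. No oocyte or zygote was among the samples, so the label of maternal presence rests on detection at the 8-cell stage alone.

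Totals ran from 286145 to 451149 counts in the 8-cell embryos, from 313356 to 491733 in the 16-cell and from 236321 to 408777 in the 32-cell ones. A total of 3 counts, the number that a count of 0 still allows, corresponds to 2.18 CPM over all 8-cell embryos, 2.44 over the 16-cell embryos and 1.91 over the 32-cell embryos, for counting error only. The highest count was 1024 in 9 of the 12 embryos and never above it, which is the number of sequences that 5 bases can form. The deposited counts therefore look like numbers of molecular identifiers that saturate, rather than converted transcript numbers. The highest count of a member in any embryo was 544. Fitted tests used the 11854 gene models with 10 or more counts over the 12 embryos, and all 168 members were among them.

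Together the members took a small share of the counts at the 8-cell stage and a much larger one later. Their summed share of an embryo's counts was 0.223, 0.178, 0.266 and 0.304% in the 8-cell embryos. In the 16-cell embryos, which the rule did not use, it was 1.05, 1.03 and 1.02%. In the 32-cell embryos it was 2.73, 3.01, 2.75, 2.88 and 3.14%. No embryo of one stage overlapped another stage, and the 16-cell embryos lay between the others with the least spread. The means were 0.243% ± 0.0543 (SD, n = 4), 1.03% ± 0.0181 (SD, n = 3) and 2.90% ± 0.175 (SD, n = 5). These 8- and 32-cell values follow from the rule and are a description. All are shares of counts that appear to saturate, not amounts of RNA. Only 1 member reached the 100 most abundant gene models of a stage, gene model 222506 at rank 65 of the 32-cell stage.

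**Figure D1:**
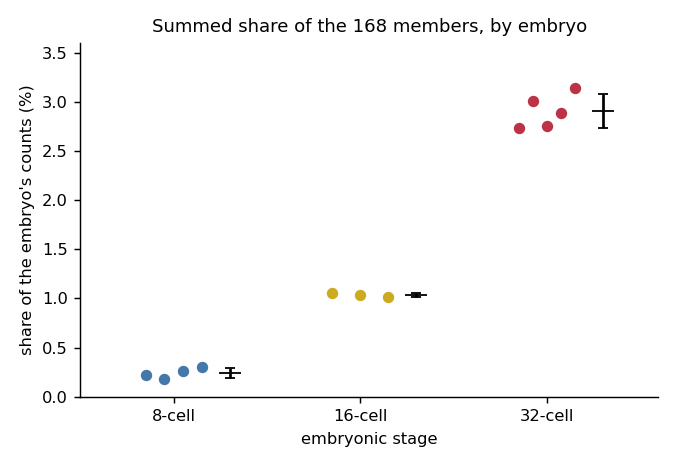
Summed share of the 168 members in the counts of each embryo (%), by embryonic stage. Each point is 1 embryo, and the black bar with whiskers is the mean ± SD of the stage. The 16-cell embryos sit between 1.02 and 1.05%, above all 8-cell embryos and below all 32-cell embryos.

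Single members were scarce at the 8-cell stage. The 4 8-cell embryos together gave a median of 9 counts per member, with 25 members at exactly 5 counts, 85 at 5 to 9 and only 9 at 50 or more. A count was present in all 4 8-cell embryos for 93 members, in 3 for 63 and in 2 for 12. At the 3 stages in turn the median level of a member was 6.55, 31.4 and 74.5 CPM, where the medians over all tested gene models were 17.5, 18.7 and 19.1 CPM. The members lay below the typical tested gene model at the 8-cell stage and above it at the 32-cell stage. The rule favours both, so this is a description. The 32- to 8-cell ratio had a median of 7.17, quartiles of 5.25 and 16.8 and a range from 4.01 to 160. It was 10 or more in 60 members, 20 or more in 35, and 100 or more in 8.

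Membership near the limits was loose. Just inside the 4-fold limit lay gene models 151038 with a ratio of 4.01 and 199895 and 223220 with 4.08 each, and just outside lay 221371 at 3.96, 208109 at 3.95 and 180142 at 3.94. With 10 rather than 5 counts required at the 8-cell stage, 83 members remained. Without 8-cell replicate 3, the deepest embryo of its stage, 148 gene models met the rule, of which 105 were among the 168.

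The order of the largest ratios rests on few 8-cell counts and changes with single embryos. They belonged to gene models that were close to 0 at the 8-cell stage and among the well-expressed ones at the 32-cell stage. These values chose the members, so no test is given for them. Gene model 214091 had the largest ratio, 160.0, with 6.99, 6.09, 2.22 and 0 CPM in the 8-cell embryos, 121, 47.4 and 59.0 in the 16-cell embryos and 429.5, 619, 638, 642 and 559 in the 32-cell embryos. Its rise was spread over both steps, and no embryo of one stage overlapped another stage. Gene model 206877 followed with a ratio of 139, going from 0, 3.04, 6.65 and 3.25 CPM in 8-cell embryos to 51.1, 9.47 and 22.4 in 16-cell and 439.6, 519, 473, 595 and 491 in 32-cell embryos. All 3 of its 16-cell embryos lay above the 8-cell ones, with replicate 1 highest. Gene model 190594, with a ratio of 137, read 0, 3.04, 4.43 and 9.74 CPM in the 8-cell, 47.9, 61.6 and 54.9 in the 16-cell and 534, 528, 687, 669 and 579.7 in the 32-cell embryos. Its 3 stages were fully separated and its 16-cell embryos lay close together. Without 8-cell replicate 3 the ratio was 134 for 214091 and 233 for 206877, and without 8-cell replicate 4 it was 212 for 190594.

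The most abundant member at the 32-cell stage was gene model 222506. It was at 3.49, 0, 15.5 and 19.5 CPM in the 8-cell embryos, 38.3, 30.8 and 54.9 in the 16-cell embryos and 1248, 1331, 1288, 1354 and 1464 in the 32-cell embryos, a ratio of 131. The 5 32-cell embryos lay within a narrow band, while 8-cell replicates 3 and 4 held 13 of its 14 8-cell counts. For gene model 217645 the 8-cell embryos gave 3.49, 0, 6.65 and 13.0 CPM, the 16-cell embryos 31.9, 4.74 and 16.3 and the 32-cell embryos 668, 805, 540.3, 662 and 728. Its 8- and 16-cell embryos overlapped, and all 32-cell embryos were far above both.

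**Figure D2:**
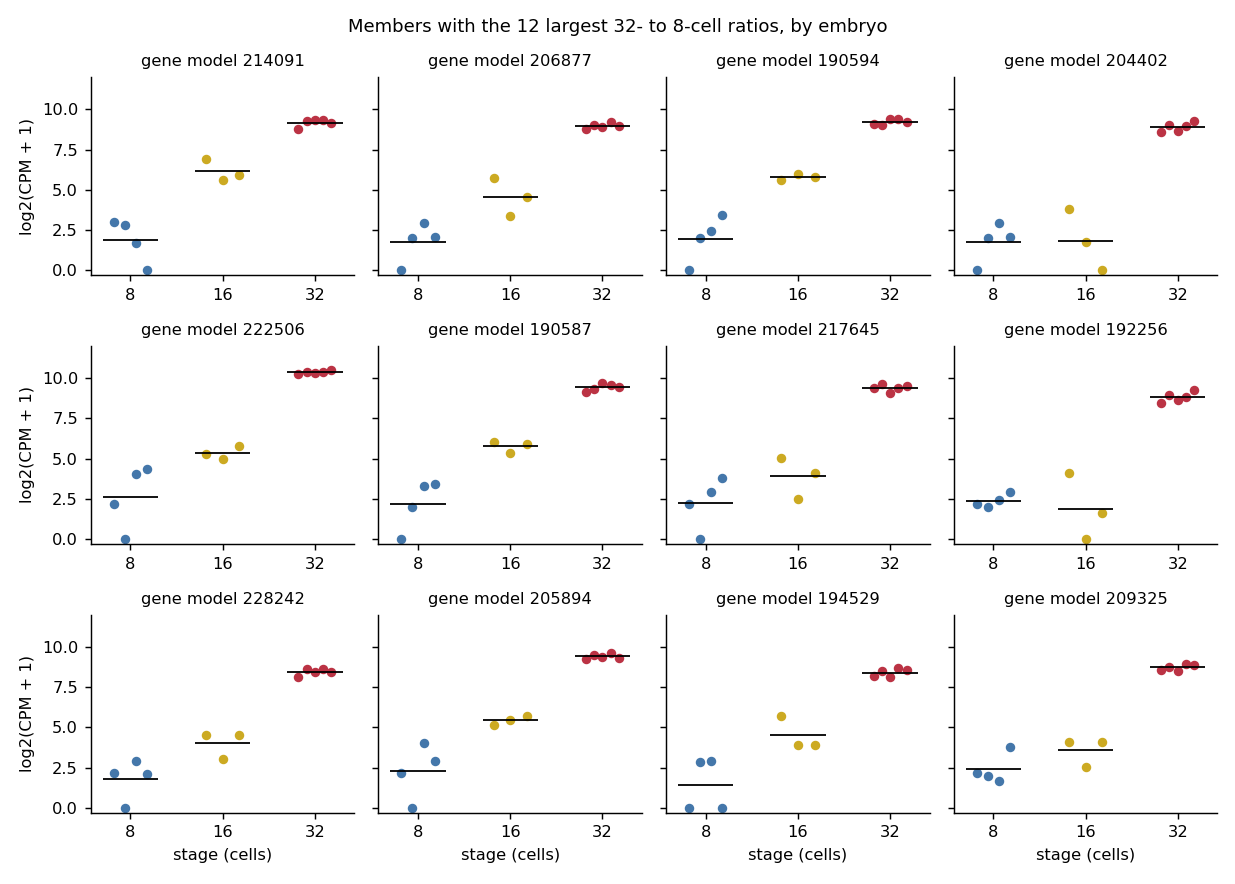
Levels of the members with the 12 largest 32- to 8-cell ratios, as log2(CPM + 1) in each embryo, by stage in cells. Points are embryos and horizontal lines are stage means. All 5 32-cell embryos lie above all other embryos in each panel, and gene models 204402, 192256, 217645 and 209325 show 16-cell embryos overlapping the 8-cell ones.

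Other gene models among these 12 began at similarly low levels. Gene model 228242 was at 3.49, 0, 6.65 and 3.25 CPM in the 8-cell embryos, at 22.3, 7.10 and 22.4 in the 16-cell embryos and at 275, 394, 354, 405 and 351 in the 32-cell embryos. The values for gene model 205894 were 3.49, 0, 15.5 and 6.49 CPM, then 35.1, 42.6 and 50.8, then 601, 712, 662, 799 and 643 at the same stages. For gene model 194529 they were 0, 6.09, 6.65 and 0 CPM, 51.1, 14.2 and 14.2 and 295, 362, 275, 411 and 372. Each of these 3 had all its 16-cell embryos above its 8-cell embryos and below its 32-cell embryos. Gene model 190587 gave 0, 3.04, 8.87 and 9.74 CPM in the 8-cell, 63.8, 40.2 and 59.0 in the 16-cell and 564, 631, 833, 749 and 694 in the 32-cell embryos, again with separate stages. Gene model 209325 gave 3.49, 3.04, 2.22 and 13.0 CPM, 16.0, 4.74 and 16.3 and 379, 440.3, 366, 485 and 465, with overlapping 8- and 16-cell embryos.

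Some members with small ratios were the most abundant of the group at the 8-cell stage, and these had short gene models. Gene model 94793, of 216 bases, read 262, 174, 231 and 347 CPM in the 8-cell embryos, 855, 739 and 832 in the 16-cell embryos and 973, 971, 1194, 936 and 1528 in the 32-cell embryos. It was the member with the best abundance rank at the 8- and 16-cell stages, 938 and 204. Gene model 116838, also of 216 bases, went from 150.3, 122, 202 and 247 CPM to 712, 566 and 677 and then 711, 780.4, 1053, 773 and 1312. Its lowest 32-cell embryo, replicate 1, did not exceed its highest 16-cell embryo. Gene model 143195, of 231 bases, was at 213, 183, 197 and 198 CPM, 721, 682 and 618 and 859, 768, 909.7, 806 and 1126 at the 3 stages. Gene model 142974, of 345 bases, was at 196, 119, 159.6 and 153 CPM, 491, 549 and 378 and 748, 570.0, 888, 518 and 799.8. The ratios of these 4 lay between 4.39 and 4.96, and 32-cell replicates 3 and 5 were the highest or next highest in all 4. Without 94793, 116838 and 143195, the 3 members with the most counts over the 12 embryos, the summed shares became 0.180, 0.821 and 2.61%.

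The 16-cell embryos show when each member rose. The lowest 16-cell embryo was above the highest 8-cell embryo in 104 of the 168 members, against 11.8% of tested gene models. In 93 members the highest 16-cell embryo was below the lowest 32-cell embryo, against 3.79% of tested gene models. Both held in 44 members and neither in 15. The median ratio of the 16- to the 8-cell level was 4.00, where it was 1.07 over all tested gene models, and the median ratio of the 32- to the 16-cell level was 2.16. These counts share 8- or 32-cell embryos with the rule and are not independent of it.

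In the edgeR quasi-likelihood test with Benjamini-Hochberg adjustment over all tested gene models, at an adjusted p of 0.05, 94 members rose from the 8- to the 16-cell stage, against 5.52% of tested gene models. From the 16- to the 32-cell stage 72 members rose, against 1.74% of tested gene models. In this test 0 members fell at either step, where 3.91% and 0.472% of tested gene models fell. At an unadjusted p under 0.05, 0 fell at the first step and 2 at the second, and DESeq2 called 0 at both. In 28 members both steps passed, in 66 only the first, in 44 only the second and in 30 neither. These tests use the 8- or 32-cell values by which the members were chosen, so the counts are a description and not independent support. A step that passed and one that did not were not compared by these counts, so the difference between the steps was fitted as a contrast of its own. From the 8- to the 32-cell stage, the contrast the rule used, 167 members rose, beside 11.0% of tested gene models, and nothing is read from that count. The exception, gene model 144856, had 0, 3.04, 6.65 and 3.25 CPM in the 8-cell embryos, 19.1, 0 and 44.7 in the 16-cell embryos and 20.1, 9.79, 21.4, 10.03 and 21.2 in the 32-cell embryos, from 5, 28 and 25 counts.

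The timing contrast was the mean of the 8- and 32-cell log2 levels minus the 16-cell log2 level, so that a positive value means that most of the rise came after the 16-cell stage. It rests on the 16-cell embryos but also uses those of the rule. The SE beside a log2 value is that value's size divided by the square root of the test's F value. It was derived from the test and is not a separately fitted standard error. By this contrast 15 members, or 8.93%, rose later, where 0.489% of tested gene models had a positive call. Earlier members numbered 37, or 22.0%, where 1.41% of tested gene models had a negative call, and 116 members had neither. Tested gene models did not all rise, so among them such a call need not mean a later or earlier rise. For a given share of the log2 rise reached by the 16-cell stage, the contrast grows with the rise itself. Members were chosen for a large rise, so their higher shares of calls in both directions are a description and not independent support. The median size of the rise in each class is given as a description. The 15 later members had a median 32- to 8-cell ratio of 37.9, with medians of 10.2, 12.2 and 357 CPM at the 3 stages. The 37 earlier members had a median ratio of 6.71, with medians of 8.74, 85.5 and 79.0 CPM. The count of later members depended on single embryos. It was 8 when 8-cell replicate 3 was dropped, 6 for 8-cell replicate 4, 5 for 16-cell replicate 2 and 7 for 16-cell replicate 3. The count of earlier members stayed between 28 and 37 when any 1 embryo was left out.

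**Figure D3:**
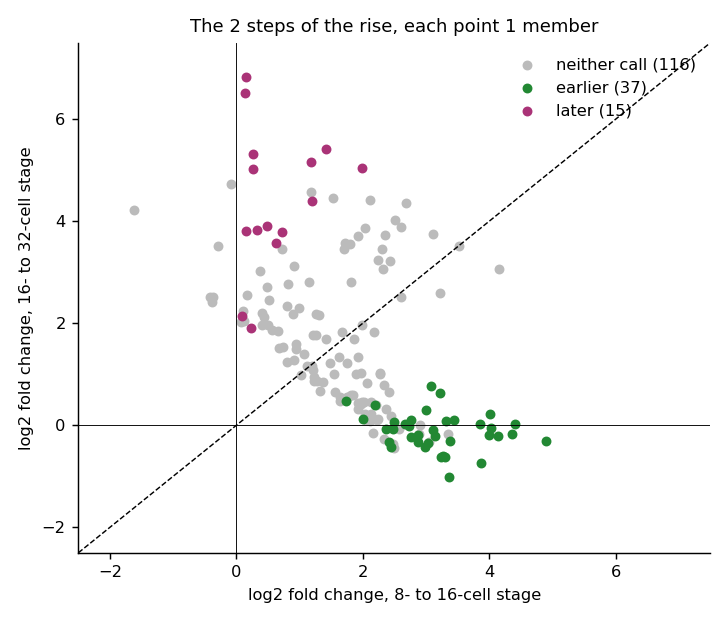
Log2 fold change of each member from the 8- to the 16-cell stage (x axis) and from the 16- to the 32-cell stage (y axis), as fitted by edgeR. Points are members, coloured by the timing call, and the dashed line marks equal steps. The 15 later members lie above the line and the 37 earlier members below it, mostly near 0 on the y axis.

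In the 15 later members the 16-cell level had a median of 1.31 times the 8-cell level, and the 32-cell level a median of 20.8 times the 16-cell level. Gene model 204402 read 0, 3.04, 6.65 and 3.25 CPM in the 8-cell embryos, 12.8, 2.37 and 0 in the 16-cell embryos and 383, 528, 406, 492 and 622 in the 32-cell embryos. Its 8- and 16-cell embryos overlapped, and the timing contrast was 3.34 ± 0.71 (SE), adjusted p = 0.0106. Gene model 192256 read 3.49, 3.04, 4.43 and 6.49 CPM, 16.0, 0 and 2.03 and 352, 504, 391, 445 and 605, with a contrast of 3.18 ± 0.65 (SE), adjusted p = 0.00807. Of its 16-cell embryos, replicate 1 held most of the counts. Dropping 8-cell replicate 3 or 16-cell replicate 2, or thinning to equal depth, ended the call of 204402, and dropping 16-cell replicate 3 that of 192256.

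Gene models 216165 and 216164, listed next to each other in the annotation with coordinates 3729 bases apart, were also later. Gene model 216165 was at 14.0, 3.04, 15.5 and 0 CPM in the 8-cell embryos, 22.3, 4.74 and 8.13 in the 16-cell embryos and 299, 355, 403, 472 and 571 in the 32-cell embryos, with a timing contrast of 2.52 ± 0.52 (SE), adjusted p = 0.00857. That call ended in a robust fit and when any one of 8-cell replicate 3 and 16-cell replicates 2 and 3 was dropped. Gene model 216164 was at 3.49, 6.09, 19.9 and 6.49 CPM, 16.0, 14.2 and 8.13 and 346, 404, 363, 358 and 478, with a contrast of 2.38 ± 0.36 (SE), adjusted p = 5.00e-04. In both, the 8- and 16-cell embryos overlapped and every 32-cell embryo was above them. The most abundant member, 222506, was later as well, with a contrast of 1.53 ± 0.34 (SE), adjusted p = 0.0146.

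Gene models 212654 and 18178 had large positive contrasts on the edge of the threshold, at 2.93 ± 0.81 (SE), adjusted p = 0.0671 for 212654 and 2.41 ± 0.64 (SE), adjusted p = 0.0514 for 18178. Gene model 212654 had 6.99, 0, 8.87 and 6.49 CPM in the 8-cell embryos, 3.19, 2.37 and 0 in the 16-cell embryos and 40.3, 48.9, 18.3, 16.7 and 55.0 in the 32-cell embryos. Gene model 18178 had 6.99, 0, 6.65 and 3.25 CPM, 12.8, 2.37 and 0 and 101, 122, 109.9, 117 and 123. Both had few counts before the 32-cell stage, 8 and 6 over the 8-cell embryos. Of 20 other settings, 7 gave the call for 18178, among them DESeq2 (adjusted p = 0.0396) and the robust fit (0.0103), and 3 gave it for 212654, among them the robust fit (0.0206).

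The 5 members with the most negative contrasts reached or passed their 32-cell level by the 16-cell stage. Gene model 201014 read 3.49, 9.13, 8.87 and 6.49 CPM in the 8-cell embryos, 204, 272 and 216 in the 16-cell embryos and 171, 176, 195, 171 and 173 in the 32-cell embryos. All its 16-cell embryos were above all its 32-cell embryos, and the timing contrast was -2.60 ± 0.18 (SE), adjusted p = 4.67e-09. Its second step was -0.31 ± 0.16 (SE), adjusted p = 0.542, on the log2 scale, and did not pass the edgeR test.

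Gene model 226171 was at 14.0, 9.13, 13.3 and 19.5 CPM, 258, 232 and 392 and 258, 274, 208, 324 and 182, with a contrast of -2.26 ± 0.20 (SE), adjusted p = 3.22e-07, and its 16- and 32-cell embryos overlapped. Gene model 221642 was at 3.49, 3.04, 11.1 and 19.5 CPM, 227, 201 and 209 and 252, 201, 189, 181 and 212, with a contrast of -2.19 ± 0.20 (SE), adjusted p = 5.07e-07. Its 16-cell embryos lay inside the range of its 32-cell embryos. Gene model 219147 was at 3.49, 12.2, 13.3 and 16.2 CPM, 166, 128 and 87.4 and 73.8, 90.5, 33.6, 50.2 and 42.3, with a contrast of -2.19 ± 0.28 (SE), adjusted p = 5.55e-05. Gene model 193158 was at 6.99, 0, 2.22 and 9.74 CPM, 54.3, 97.1 and 61.0 and 70.5, 36.7, 15.3, 43.5 and 38.1, with a contrast of -2.31 ± 0.39 (SE), adjusted p = 0.00147. In both of the last named the 16- and 32-cell embryos overlapped. The second step was -1.01 ± 0.28 (SE), adjusted p = 0.0668 for 219147 and -0.74 ± 0.38 (SE), adjusted p = 0.529 for 193158. All 5 earlier calls were kept in each of the 20 other settings tried.

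Over all members the 16-cell stage level exceeded the 32-cell stage level in 36, and in 3 of them every 16-cell embryo was above every 32-cell embryo. Those 3 were 201014, 227018 and 174847. Gene model 227018 had 17.5, 6.09, 4.43 and 9.74 CPM in the 8-cell embryos, 144, 159 and 146 in the 16-cell embryos and 121, 125, 119, 140.5 and 118 in the 32-cell embryos. Gene model 174847 had 3.49, 9.13, 19.9 and 22.7 CPM, 102, 111 and 114 and 90.6, 88.1, 67.2, 93.6 and 76.2. In 6 members the 16-cell level was below the 8-cell level.

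Of the 35 members with a ratio of 20 or more, a limit chosen after the values were seen, 10 were called later, 2 earlier and 23 neither. Of the 35, 29 had under 50% of their log2 rise by the 16-cell stage, against 43 of the other 133. That share is taken of the same 32- to 8-cell rise by which the 35 were split, so it is a description only. The timing contrast also grows with that rise, so the numbers called among the 35 are a description too. The summed share of the 35 was 0.0157, 0.0119, 0.0339 and 0.0321% in the 8-cell embryos, 0.171, 0.136 and 0.136% in the 16-cell embryos and 1.38, 1.58, 1.39, 1.61 and 1.56% in the 32-cell embryos. The stages did not overlap. 8-cell replicate 3 held 45.5% of the 8-cell counts of the 35, while it held 32.8% of all 8-cell counts. All embryos were sequenced on a single lane with a barcode each. Whether low 8-cell counts of these members carried molecules of other embryos was not tested.

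The limit of 5 counts at the 8-cell stage also cut through a wider set. Among all gene models, 91 had 100 or more counts at the 32-cell stage and at least 20 times the 8-cell level. Of these, 7 had no 8-cell count, 46 had 1 to 4 and 38 had 5 or more, and 35 of the 38 were members. In the remaining 3 the lowest 32-cell embryo was not above the highest 8-cell embryo.

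Positions and genomic spans, which the rule did not use, came from the RefSeq annotation. It gave a position for 166 of the 168 members and for 98.6% of all gene models, and neither product names nor scaffolds were used here. The median span of a member was 2135 bases, from 159 to 16089, against 2891 for tested gene models and 1803 for all annotated ones. Spans under 1500 bases made up 41.0% of members, 23.6% of tested and 43.5% of annotated gene models. The median span was 1042 bases for the 34 positioned members with a ratio of 20 or more and 2356 for the others, a difference that was not tested. A span includes introns and is not a transcript length. Whether gene models reach the 3′ end that CEL-Seq reads was not tested.

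**Figure D4:**
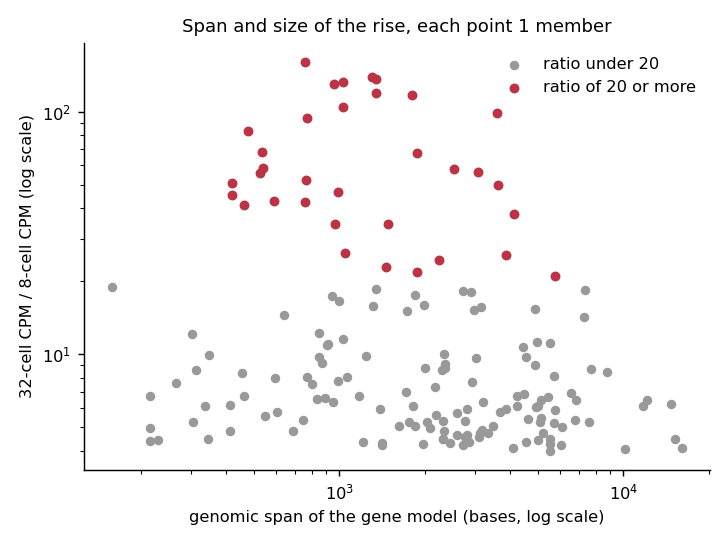
Genomic span of each member (bases, log scale) against its 32- to 8-cell ratio (log scale), for the 166 members with a position. Red points are the members with a ratio of 20 or more, whose median span is 1042 bases, and grey points are the others, with a median of 2356.

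Several members with large ratios came in pairs of equal span. The 34 positioned members with a ratio of 20 or more can form 561 pairs. Of these, 5 had spans within 2 bases of each other, or 0.891%, against 0.0676% of pairs of tested gene models. The 34 had a median span of 1042 bases against 2891 for tested gene models, so that background is not matched for span. Pairs among the other members were not counted. Gene models 204402 and 192256, both of 1035 bases, had 5, 5 and 757 and 6, 6 and 715 counts at the 3 stages, and ranked the 5 32-cell embryos in the same order. Gene models 190323 and 190322, of 535 and 537 bases, are listed next to each other with coordinates 3677 bases apart. They had 18, 85 and 1399 and 22, 82 and 1473 counts, and they too ranked the 32-cell embryos alike. In the 32-cell embryos gene model 190322 was at 1060.4, 1005, 699, 1104 and 791 CPM and 190323 at 1010.0, 988, 629, 1053 and 732.

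The other 3 pairs did not rank the 32-cell embryos in the same order. Gene models 190594 and 190587, of 1346 and 1344 bases, had 6, 68 and 937 and 8, 66 and 1087 counts. Gene models 39529 and 39091, both of 420 bases, had 17, 85 and 986 and 17, 74 and 878 counts. Gene models 214091 and 214094, both of 759 bases, had 5, 87 and 914 and 5, 16 and 243 counts. How the counting treated reads that match several copies is not given in the sources used here, nor whether it used strand. If copies shared reads, the values of each pair would not be separate measurements, and their division between the gene models is uncertain.

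**Figure D5:**
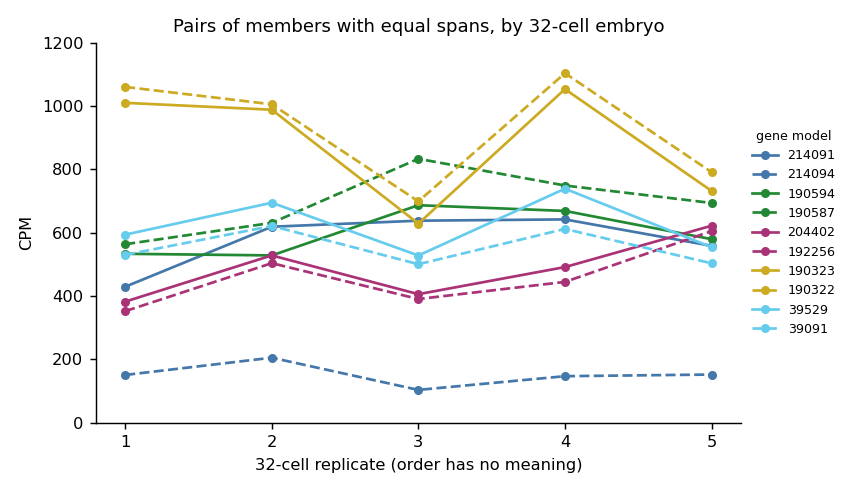
CPM of the 5 pairs of members with spans within 2 bases, in each 32-cell embryo. Each colour is 1 pair, with the first gene model solid and the second dashed, and lines join embryos only to guide the eye. The lines of 204402 and 192256 and those of 190323 and 190322 run side by side, whereas 214094 stays far below 214091.

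In 6 pairs, gene models listed next to each other in the annotation, with ascending coordinates at most 10000 bases apart, were both members. These pairs held 12 members, or 7.14%, while 65.9% of tested gene models had a tested gene model next to them by the same criterion. These percentages cannot be compared, since 11854 gene models were tested and only 168 were members, which leaves members far fewer possible partners. No background for a group of that size was computed. The table used names no scaffold, so that such models lie on 1 scaffold was not tested, and nothing about the members is read from the count. Besides the pairs already named, gene models 214141 and 214142 were 1562 bases apart. Gene model 214141 read 14.0, 0, 8.87 and 9.74 CPM in the 8-cell embryos, 44.7, 33.1 and 48.8 in the 16-cell embryos and 349, 374, 311, 331 and 339 in the 32-cell embryos. Gene model 214142 read 3.49, 0, 22.2 and 3.25 CPM, 83.0, 37.9 and 48.8 and 332, 306, 266, 341 and 258, and in both the 3 stages were separated. Gene models 210045 and 210046 were 1422 bases apart, 197369 and 197370 were 2086, and 223292 and 199121 were 5607.

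Of the 119 tested neighbours that were not members, 21 rose from the 8- to the 32-cell stage, or 17.6% against 11.0% of tested gene models, and 12 fell, or 10.1% against 8.98%. From the 16- to the 32-cell stage 7 rose, or 5.88% against 1.74%. With the stricter filter on low counts of edgeR (filterByExpr), 10 of 63 neighbours rose over both steps, or 15.9% against 16.9% of tested gene models, and 14 fell, or 22.2% against 17.6%. The higher share of neighbours rising from the 8- to the 32-cell stage was thus not seen under that filter. From the 16- to the 32-cell stage 6 of the 63 neighbours rose under it, beside 167 of 5511 tested gene models. At that step the share of neighbours thus stayed above that of tested gene models, on few neighbours. Several of these neighbours had the profile of a member with too few 8-cell counts to qualify. Gene model 206876, next to 206877, had 4, 43 and 754 counts at the 3 stages. Gene model 188450 had 3, 19 and 356 counts, and 216166, next to 216165, had 1, 3 and 120. These 3 were chosen after their values were seen, and shared counting between adjacent gene models was not tested.

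Levels of the members were more alike between embryos at the later stages, where their counts were also higher. Across the 168 members, the correlation of log2(CPM + 1) between embryos of a stage lay between 0.392 and 0.562 for 8-cell, between 0.759 and 0.795 for 16-cell and between 0.911 and 0.952 for 32-cell embryos. These are correlations across genes of libraries that share depth and gene makeup, and genes are not independent replicates. The rule favours low 8-cell and high 32-cell levels, so the difference between the stages is a description. Such correlations were not computed over all tested gene models. Among the 32-cell embryos the coefficient of variation of a member had a median of 22.0% and a range from 5.75 to 109%. The evenest were 224079, 201014 and 222506.

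The least even members were 200370, 226257 and 163211. Gene model 226257 read 6.99, 15.2, 33.2 and 16.2 CPM in the 8-cell embryos, 115, 455 and 36.6 in the 16-cell embryos and 131, 311, 42.7, 40.1 and 334 in the 32-cell embryos, so that 32-cell replicates 2 and 5 were far above replicates 3 and 4. Gene model 200370 read 6.99, 0, 8.87 and 13.0 CPM, 12.8, 4.74 and 73.2 and 13.4, 39.1, 24.4, 40.1 and 165, with 32-cell replicate 5 and 16-cell replicate 3 standing apart. Gene model 163211 read 0, 3.04, 4.43 and 9.74 CPM, 28.7, 23.7 and 52.9 and 26.8, 48.9, 15.3, 10.03 and 71.9, with its 32-cell replicate 4 barely above its highest 8-cell embryo. These 3 were chosen after their values were seen.

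For the members with large ratios, the 16-cell embryo with the highest level was counted as a description. Members are not replicates of an embryo, and replicate 1 had the lowest total of its stage, 313356 counts. Of the 35 with a ratio of 20 or more, 18 had their highest 16-cell level in replicate 1, 8 in replicate 2 and 9 in replicate 3. Over all 168 members these numbers were 59, 54 and 55, and they were not computed over all tested gene models.

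The study gives a list of TGF-β superfamily components with reference to an earlier analysis of the genome. That superfamily was the pathway it examined in these same embryos, so the list is not independent evidence. Of its 33 ligands, receptors, Smads and inhibitors, 32 were in the table and 19 were tested, and 0 were members. The listed *Smad1/5/8* met the numeric criteria and is left out by the rule, so the 0 was set by that exclusion. Of the 11854 tested gene models 168 were members, and nothing about the pathway is read from the 0. In the edgeR test 3 of the 19 rose over both steps, against 11.0% of tested gene models. They were *Noggin A*, a secreted BMP antagonist, *activin/inhibin/myostatin-like 4*, a ligand, and *Smad1/5/8*, the transducer of BMP signals. *TSG*, an extracellular modulator of BMP signals, fell, against 8.98% of tested gene models. At the first step *Activin Receptor 2* and the same ligand rose and *TSG* fell, and at the second only *Noggin A* rose. By the timing contrast 0 had a positive and 0 a negative call, where 1 and 2 had an unadjusted p under 0.05 and DESeq2 called 0 in each direction.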

How the data were processed

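RNA of 12 single embryos was sequenced by CEL-Seq. The authors demultiplexed reads by barcode, aligned them with Bowtie2 to the genome of the species, counted molecular identifiers per gene model with an HTSeq script and, by their methods, converted these to transcript counts. The deposited counts are unnormalized and end at 1024 in 9 of 12 embryos, so they appear to be identifier numbers before that conversion, and a conversion was tried as an alternative. The deposited CPM values are the same counts scaled to 1000000 per embryo by the authors, with a largest relative deviation of 4.84e-10 from CPM recomputed here. A further table holds fold changes and p-values of a DESeq2 likelihood ratio test by the authors and was not used. Columns of other samples numbered 0.

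Groups came from the stage in the labels. Stage levels, ratios and shares were computed in Python 3.11.15 with pandas 2.3.3. Tests used edgeR 4.0.16 in R 4.3.3 (TMM scaling, glmQLFit and glmQLFTest, all 12 embryos in one fit, gene models with 10 or more summed counts, Benjamini-Hochberg adjustment, threshold 0.05) and were tested on simulated data. DESeq2 1.42.0 was an alternative, beside other scalings, filters, thinning to 236321 counts and leaving out each embryo. The labels do not say whether embryos came from separate broods, so p-values measure the spread between these embryos. Replicates of a stage differed by more than sampling noise, with a chi-square per degree of freedom of 1.81 to 3.02 over 19 pairs. No spike-in row was among the gene models used. The members and lists were chosen with earlier results of these data known. Named gene models are the 12 members with the largest ratio, the 8 most abundant at the 32-cell stage, the 5 with the largest and the 5 with the smallest timing contrast, the 3 on each side of the ratio limit, up to 6 adjacent members, and others said to be chosen after their values were seen. Equal spans, neighbours, the ratio of 20 and the spread among 16- and 32-cell embryos were examined after the values were seen. Sequences and product names of the gene models were not used here, so lists based on them were not applied.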

Additional observations from a re-analysis of the deposited data

Results flagged for a closer look

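In 66 stage groups of 4 or 5 embryos, from the 32 named members and the summed share of all members, 3 had a single embryo far from the others by Dixon's criterion, which chance meets in about 1 in 20 groups. Gene model 209325 was at 13.0 CPM in 8-cell replicate 4, while the other 8-cell embryos lay between 2.22 and 3.49 CPM. Gene model 214142 was at 22.2 CPM in 8-cell replicate 3, against 0 to 3.49 CPM in the others. Gene model 201014 was at 195 CPM in 32-cell replicate 3, against 171 to 176 CPM in the others.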

How the results depend on the processing

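Most members rest on few counts at the 8-cell stage. The number of members by the rule was 83 with 10 counts required, 268 with a 3-fold limit (200 kept by the cap) and 107 with a 6-fold limit, and from 140 to 196 when any 1 8- or 32-cell embryo was left out. Later members numbered 8 after thinning to the smallest total, and 5 to 17 with 1 embryo left out. Without the 3 members of highest count the summed share was 0.180% at the 8-cell, 0.821% at the 16-cell and 2.61% at the 32-cell stage, and with TMM scaling it was 1.01% at the 16-cell stage. Against all annotated gene models rather than tested ones, the background of short spans was 43.5%. The causes of these shifts were not tested beyond the stated change. Replicate numbers were not used as pairs in the main fit. The 10 same-numbered pairs had correlations of their deviations between -0.0750 and 0.0609, and 37 other pairs between -0.133 and 0.143. Whether same-numbered embryos shared a brood was not tested. With the replicate number as a block, 13 members were later, 39 earlier, 97 rose at the first step, 71 at the second and 166 from the 8- to the 32-cell stage. With 1 embryo left out, 82 to 95 members rose at the first step, 65 to 74 at the second and 164 to 168 over both. The signs of the 10 timing contrasts tried under each setting did not change. From the 8- to the 32-cell stage 10 neighbours rose and 14 fell under filterByExpr, where 21 rose and 12 fell with the filter of 10 summed counts. Ratios of the members with the largest ratios moved with 8-cell embryos, that of 214091 from 124 to 211, of 206877 from 110 to 233, of 190594 from 108 to 212, of 205894 from 71.8 to 211 and of 222506 from 99.4 to 177. Thinning gave 276 for 214091, and the identifier conversion 171 for 222506. These alternatives were chosen after seeing the data.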
